A study of Drosophila melanogaster with 2 samples.

Results

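The X chromosome held 4415 of the 30000 candidate regions at which the tagged Drosophila protein CG14965-eGFP was scored by ChIP-seq, and 232 of these 4415 were also among the 1302 thresholded peaks. Members were all regions of the pooled dm6 list that lie on X, whatever their signal, so their position chose them and not their values. The 25585 autosomal regions, 1070 of them peaks, served for comparison. Candidate regions include weak background. The peaks are those that passed the authors' irreproducible discovery rate (IDR) threshold, which rests on how well ranks repeat between replicates. On X these peaks were all the regions among the 1302 highest by pooled signal, so none was dropped for poor agreement between replicates. The 1070 autosomal peaks matched in number the rest of these 1302 regions, so nothing here sets X apart. Being a peak thus does not show that a given X region repeated. The Sxl peak, for example, ranked 830 in replicate 3 and 15565 in replicate 4. Of the 232 X peaks, 154 overlapped a region among the 1302 highest in both replicate lists and 9 in neither.

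The chromatin came from whole embryos, 0 to 24 h old and of both sexes pooled, of a transgenic line whose CG14965 protein ends in enhanced green fluorescent protein (eGFP). An antibody to GFP precipitated chromatin sheared to 200 to 800 bp. There were 2 biological replicates, numbered 3 and 4, from separate biosamples of 1 line, and they form 1 group, so no condition or genotype could be compared. The promoter that drives the fusion is not given in the sources used here, and an untagged line was not analysed here. Whole embryos mix all cell types and stages, so a region bound in few cells and one bound weakly in many cannot be told apart. Male embryos carry a single X, so a mixed pool holds fewer copies of X than of an autosome, and what this does to the number of regions was not tested.

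In Drosophila the single male X is transcribed at a raised level. The MSL complex, which contains the acetyltransferase Mof and the noncoding roX RNAs, spreads over active genes of that chromosome from entry sites rich in GA repeats. The X is also richer in simple repeats such as CA than the autosomes. Insulator proteins such as CTCF, a zinc finger factor with a long recognition sequence, bind on X and autosomes alike.

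The sequences below are those of X peaks among the 13 of highest signal. The first 8 hold a CTCF core, which was searched as the 4 words AGATGGCGC, AGAGGGCGC, AGGTGGCGC and AGGGGGCGC on both strands within 50 bp of the summit. They are shown because 7 of the 8 strongest X peaks carry this core. Each is the strand that reads as the core, with 20 bp on each side, on dm6 (Release 6 genome), and the core is in capitals.
CG3556 promoter (chrX:4530028-4530076, minus strand): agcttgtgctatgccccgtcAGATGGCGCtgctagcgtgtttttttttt
Nep1 (chrX:6110081-6110129, plus strand): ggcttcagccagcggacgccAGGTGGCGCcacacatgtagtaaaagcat
Ubr1 (chrX:16967611-16967659, plus strand): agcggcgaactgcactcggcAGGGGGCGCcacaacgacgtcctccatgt
CG12725 (chrX:13401405-13401453, minus strand): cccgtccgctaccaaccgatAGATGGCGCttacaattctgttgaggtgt
CG3556 distal (chrX:4507294-4507342, minus strand): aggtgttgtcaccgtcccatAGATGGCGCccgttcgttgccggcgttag
lncRNA:CR43838 (chrX:20760516-20760564, plus strand): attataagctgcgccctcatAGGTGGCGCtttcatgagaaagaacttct
CG43658 (chrX:17532436-17532484, minus strand): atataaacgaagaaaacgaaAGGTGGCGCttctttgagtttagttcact
sgg (chrX:2659636-2659684, minus strand): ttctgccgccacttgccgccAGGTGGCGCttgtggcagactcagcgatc

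The next 4 are strong X peaks without the core, shown for contrast as the 30 bp on each side of the summit, plus strand. The strongest X peak without the core, at Ugalt, is not shown. Capitals in the PsGEF window mark the first 8 letters of a core word whose last letter differs. The windows of ph-p and of both lncRNA:CR44619 peaks hold no such match and are rich in A and T.
ph-p (chrX:2137340-2137400): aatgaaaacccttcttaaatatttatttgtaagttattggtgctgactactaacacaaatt
PsGEF (chrX:2388127-2388187): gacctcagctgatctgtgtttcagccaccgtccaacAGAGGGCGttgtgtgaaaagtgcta
lncRNA:CR44619 right (chrX:12752319-12752379): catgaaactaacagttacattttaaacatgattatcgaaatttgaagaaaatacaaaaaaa
lncRNA:CR44619 left (chrX:12751416-12751476): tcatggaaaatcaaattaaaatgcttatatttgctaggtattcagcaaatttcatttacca

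The X was as densely covered with peaks as the autosomes but less densely with candidate regions. It had 9.85 peaks per Mb against 9.70 on the autosomes, a ratio of 1.02 (95% exact interval 0.878 to 1.17). Candidate regions numbered 187.5 per Mb on X and 231.9 per Mb on the autosomes, a ratio of 0.809 (0.783 to 0.835). Among the arms 2L, 2R, 3L and 3R, candidates ran from 223 to 239 per Mb and peaks from 9.23 to 10.3 per Mb, so X lay below the range of these arms in candidates and inside it in peaks. All intervals here cover counting error only, since regions are not replicates and the files give no read numbers.

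Both replicates had fewer candidates per Mb on X than on the autosomes, with 200.4 against 229 in replicate 3 and 170.3 against 236 in replicate 4. The replicates also differed in peaks. Where the 1302 highest regions of each replicate list were taken as its peaks, X had 10.1 per Mb against 9.65 in replicate 3, and 8.62 per Mb against 9.96 in replicate 4. The ratio of densities was then 1.04 (0.902 to 1.20) and 0.866 (0.742 to 1.01), so without replicate 3 the value fell below 1 with an interval that just reached it.

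As a share of candidates, peaks made up 5.25% on X and 4.18% on the autosomes, where the share over all chromosomes was 4.34%. The difference was 1.07 percentage points (95% Newcombe interval 0.403 to 1.81). The 4 large autosomal arms spanned 4.03 to 4.31%, below X. In each replicate alone the difference was 0.812 and 0.835 points, and both intervals excluded 0. The higher share was already known from these data, so these values are a description and no independent support. The higher share stood beside the lower number of candidates, and peaks per Mb did not differ beyond counting error.

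**Figure D1:**
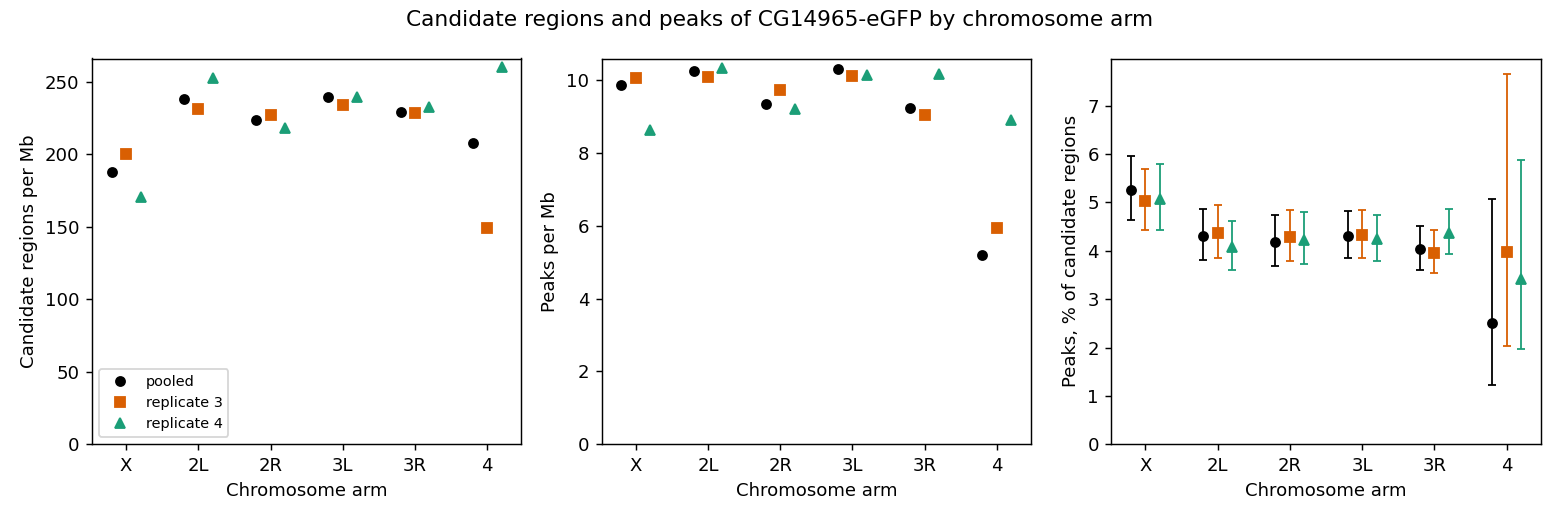
Candidate regions per Mb, peaks per Mb and peaks as a percentage of candidate regions (95% Wilson intervals) for each chromosome arm, in the pooled list, replicate 3 and replicate 4. X lies below 2L, 2R, 3L and 3R in candidates (187.5 per Mb in the pooled list), within their range in pooled peaks (9.85 per Mb) and above them in the share of peaks (5.25%), while the short chromosome 4 has wide intervals.

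The share of X also varied with the number of regions taken. Of the 25 highest pooled regions 1 lay on X, of the 100 highest 16, and of the 500 highest 91, or 18.2% (15.1 to 21.8%). It was 17.8% of the 1302 peaks and 14.8% of the 5000 highest regions, 13.8% of the 10000 highest and 14.7% of the whole list. In the 5000 highest regions of each replicate alone X held 15.5% in replicate 3 and 12.1% in replicate 4. Both replicates had 1 X region among their 25 highest and 18.2 and 18.6% among their 500 highest, so the lists parted only lower down.

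**Figure D2:**
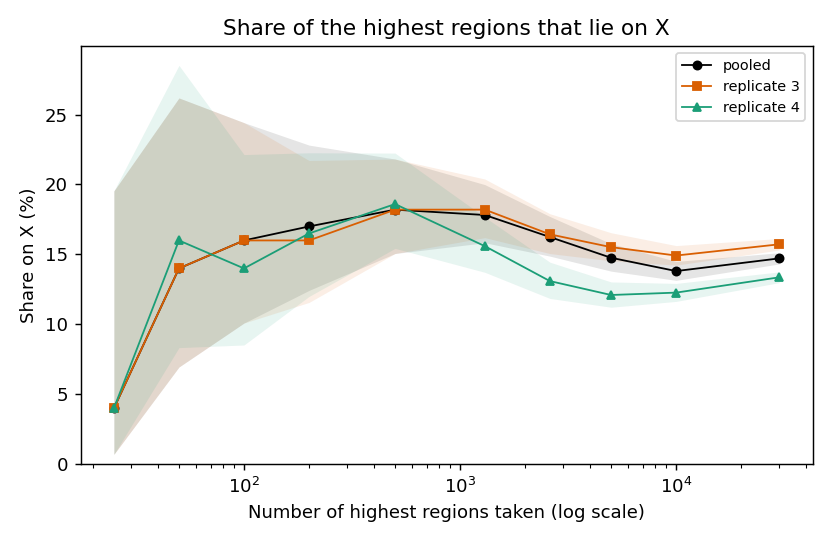
Share of regions on X (%) among the highest regions of each list, from 25 to 30000 on a log axis, with 95% Wilson intervals as bands. The 3 lists overlap up to 500 regions, where X holds 18.2 to 18.6%, and replicate 4 runs below replicate 3 from 1302 regions on.

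The signal value that the authors deposited is a score without a stated scale, so it serves only to order regions within a list. At X peaks it ran from 69.8 to 2304 with a median of 103, against a median of 101 and a highest value of 8276 at autosomal peaks. Signals over 1000 were reached by 3 X peaks and 33 autosomal ones. Signals over 300 were reached by 19 of the 232 X peaks (8.19%) and 96 of the 1070 autosomal ones (8.97%). In the pooled list the middle of the distribution was thus nearly the same. With the 1302 highest regions of a replicate as its peaks, the medians were 60.5 on X and 61.7 on the autosomes in replicate 3. In replicate 4 X was higher, at 49.6 against 43.0. The highest pooled signal was 2304 on X, 2994 on 2L, 3581 on 3L and 3903 on chromosome 4. The highest values of all, 7893 and 8276, were on 2R and 3R. Each of these is a single region. The last X region inside the threshold, at the promoter of CG45064, had a pooled signal of 69.76 and rank 1302. The first X region outside it, in an intron of Gclc, had 69.55 and rank 1309.

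The strongest X peak lay in the promoter of CG3556, 155 bp from the transcription start site (TSS) and inside the long noncoding gene lncRNA:CR32773. Its signal was 2304 in the pooled list, 1381 in replicate 3 and 936 in replicate 4, and it ranked 17 pooled and 18 in each replicate. A further peak of the same host gene, 22917 bp from the nearest TSS and in an intron, had 800.5 pooled, 507 in replicate 3 and 296 in replicate 4. Both carry the same core word on the minus strand, as printed above.

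The second strongest, nearest to the TSS of Nep1, a neprilysin metallopeptidase, lay in an intron of Ca-alpha1T, which encodes a T-type calcium channel. It was 15495 bp from any TSS, with a signal of 1440 pooled, 873 in replicate 3 and 581 in replicate 4. The next, in coding sequence of Ubr1, a ubiquitin ligase of the N-degron pathway, had 1018, 607 and 412 in the same order. Both ranked between 28 and 38 in all 3 lists, so the replicates placed them alike.

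Intergenic sequence 1435 bp from CG12725 held a peak of 871 (558 in replicate 3 and 320 in replicate 4). The promoter peak of lncRNA:CR43838 had 747 (477 and 270). An intron of CG43658, 983 bp from the TSS, had 624 (361 and 271). All 3 carry the CTCF core, and all 3 ranked within the first 54 regions of each list.

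Strong peaks without the core are given next. Ugalt, which encodes a UDP-galactose transporter, had a promoter peak of 723 (439 and 281) only 22 bp from the TSS. Its pooled signal was above that of the core peak in CG43658. The Polycomb group gene ph-p, a subunit of the PRC1 complex, had an intron peak of 557 (323 and 237). The promoter peak of PsGEF, which encodes a guanine nucleotide exchange factor, had 467 (289 and 180). These 3 ranked between 45 and 81 in both replicates. The paired peaks at lncRNA:CR44619, both in its promoter region, had nearly equal pooled signals of 388 and 387. In replicate 3 the right one was the higher (223 against 206) and in replicate 4 the left one (195 against 163), so their order was not repeated.

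The rest of the 25 strongest had pooled signals from 266 to 384. A coding exon of sgg, the glycogen synthase kinase of Wnt signalling, held a peak of 384 (225 and 164) with a core. Introns of Tlk, the Tousled-like kinase, and of Raf, the kinase that acts between Ras and MEK, held 337 (206 and 130) and 266 (155 and 111). Neither of those intron peaks had a core.
NFAT, the fly homologue of the nuclear factor of activated T cells, had an intron peak of 295 (167 and 122). Atf3, a bZIP transcription factor, had a promoter peak of 286 (148 and 138). The promoter of dnc, which encodes the cAMP phosphodiesterase needed for learning, had 266 (149 and 117). These were similar in both replicates, with ranks from 109 to 140. The remaining peaks of the 25 were nearest to goe (381), CG32772 (337), lncRNA:CR42794 (309), CG44437 inside sno (306), Rbcn-3A (303), MFS10 (278) and CG17896 (268), and among them Rbcn-3A had a core. By location the 25 split into 11 in introns, 9 in promoters, 3 in intergenic sequence and 2 in coding sequence, and 5 lay more than 2000 bp from any TSS.

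All 25 were among the 1302 highest regions of both replicates, as were the 25 strongest autosomal peaks. Every one of the 232 X peaks overlapped a region in each replicate list by at least 1 bp. Of the 1070 autosomal peaks, 1070 did so in replicate 3 and 1061 in replicate 4. The pooled list derives from both replicates, so such overlap is no independent support. Of the X peaks, 154 (66.4%) overlapped a top 1302 region in both, against 680 of 1070 (63.6%) on the autosomes. The difference was 2.83 points (−4.08 to 9.30), which spans 0. A top region was found in replicate 3 only for 38 X peaks, in replicate 4 only for 31 and in neither for 9. Across X peaks the signal in replicate 3 and that in replicate 4 had a Spearman correlation of 0.618, against 0.639 across autosomal peaks. This is a description across peaks, which share libraries and are not independent. In the plot of both replicates the strong peaks follow a single line and the weak ones scatter.

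**Figure D3:**
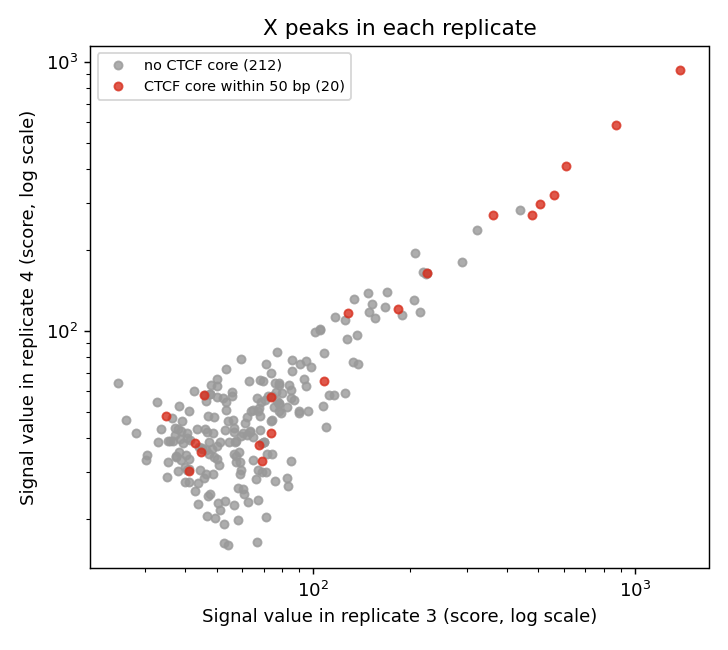
Signal value of each of the 232 X peaks in replicate 3 and replicate 4, on log axes, with the 20 peaks that have a CTCF core within 50 bp of the summit in red. The strongest peak stands at 1381 and 936, the 8 strongest include 7 red points, and the replicates scatter most below a signal of about 100.

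X peaks lay in introns more often, and in intergenic sequence less often, than autosomal peaks. Promoter here means at most 500 bp from a TSS, and all other summits were placed by annotation. Introns held 108 of 232 X peaks (46.6%) against 33.8% on the autosomes, a difference of 12.7 points (5.78 to 19.7). Intergenic sequence held 19 (8.19%) against 16.4%, a difference of −8.26 points (−12.0 to −3.52). X lay outside the range of the 4 large autosomal arms in both, which had 32.6 to 35.2% of peaks in introns and 9.75 to 24.5% in intergenic sequence.

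The intron share of X was higher in replicate 3 alone (42.2 against 31.9%) and in replicate 4 alone (44.3 against 32.8%). Introns also take up more of the X itself, at 43.4% of its bases against 38.7% of autosomal bases, with the 4 large arms between 36.5 and 43.1%. Intergenic bases make up 22.6% of X and 28.2% of the autosomes. The other candidate regions differed the same way, with 38.2 against 33.8% in introns and 11.02 against 17.6% in intergenic sequence. The part of the base composition in the difference between peaks was not tested.

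Promoters held 93 X peaks (40.1%) against 46.2% on the autosomes. The difference of −6.08 points had an interval that spanned 0 (−12.9 to 0.989), and the arms spread from 36.2 to 54.2%. In replicate 4 alone the difference was −0.659 points. Counted from the start sites, 127 of 3907 distinct X TSSs (3.25%) had a peak within 500 bp against 4.08% of autosomal TSSs, a difference of −0.831 points (−1.42 to −0.171). That interval spanned 0 in replicate 3 alone (−0.528 points), for a window of 1000 bp (−0.574 points) and for the stricter set of 122 X and 529 autosomal peaks of highest signal (−0.404 points). A single peak can lie within 500 bp of several TSSs, so TSSs are not independent and these intervals may be too narrow. Coding sequence held 4 X peaks (1.72%) and 13 autosomal ones (1.21%). Without replicate 3 it held 5 of 203 on X (2.46%) and 51 of 1099 on the autosomes (4.64%), so the order turned, and both intervals of the difference spanned 0. It held 20.2% of the other X candidates and 20.1% of the autosomal ones, so coding peaks were scarce beside them on both. The median distance of a summit from the nearest TSS was 912 bp on X and 629.5 bp on the autosomes, within the 433 to 1098 bp spanned by the 4 large arms.

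**Figure D4:**
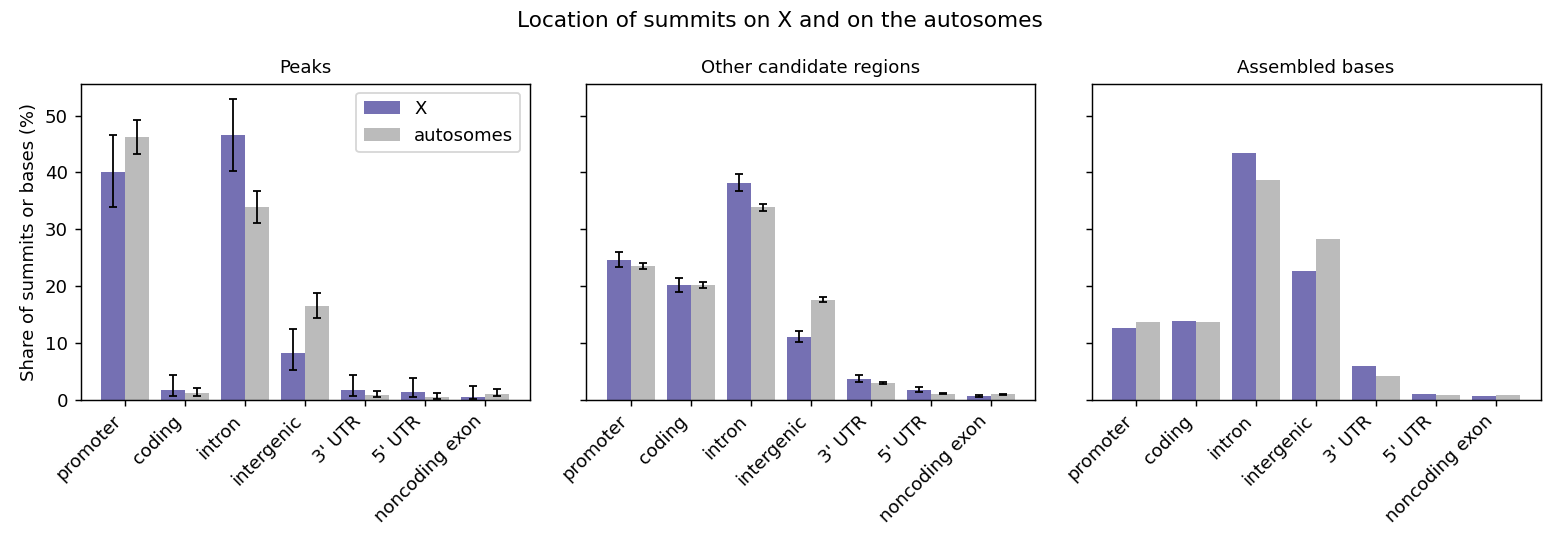
Share of peaks, of other candidate regions and of assembled bases in each annotation class on X and on the autosomes, with 95% Wilson intervals for the regions. Among peaks, X stands higher in introns (46.6 against 33.8%) and lower in intergenic sequence (8.19 against 16.4%), and the bases differ in the same directions by less.

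The CTCF core was the motif found most often at X peaks. It lay within 50 bp of the summit of 20 X peaks (8.62%) and 57 autosomal peaks (5.33%). The difference of 3.29 points had an interval that just spanned 0 (−0.0402 to 7.77), and the 4 large arms had 3.32 to 6.36%. In replicate 3 alone the shares were 7.59 and 5.16%, and in replicate 4 alone 9.85 and 5.10%, where the interval of the difference excluded 0 (1.07 to 9.77). Among other candidates the core was found at 0.622% on X and 0.457% on the autosomes, and in 0.262% of all X windows of 101 bp against 0.187% of autosomal ones. The word is thus a little more common in X sequence as a whole, and far more common at peaks than at other candidates on both. The CTCF motif was among the results already known from these data, so the intervals are a description too. A match of letters is a description and does not show that CTCF binds there.

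The median distance from the summit to the centre of the core was 12.5 bp on X and 17 bp on the autosomes. No X core was further than 33 bp. The search reached only 50 bp from the summit, so it bounds these distances. The words were not used in the same proportion. Of the 20 X peaks 10 had AGGTGGCGC, 9 AGATGGCGC, 1 AGGGGGCGC and 0 AGAGGGCGC. Of the 57 autosomal ones 12, 31, 3 and 11 had these words in the same order. The difference between these counts was not tested.

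X peaks with a core had a median signal of 209, and those without one 101. Of X peaks with a signal of at least 300, 9 of 19 had a core (47.4%, 27.3 to 68.3%), against 23 of 96 autosomal ones (24.0%, 16.5 to 33.4%). The difference was 23.4 points (1.26 to 45.6). From 150 to 300 the order was the opposite, at 2 of 32 on X (6.25%) and 14 of 167 on the autosomes (8.38%), with an interval of the difference that spanned 0 (−9.02 to 12.2). From 100 to 150 it was 4 of 73 (5.48%) and 12 of 282 (4.26%), and that interval spanned 0 too (−3.28 to 9.21). Below 100 it was 5 of 108 (4.63%) and 8 of 525 (1.52%), a difference of 3.11 points (0.0953 to 8.91). These signal bounds were chosen after the values were seen, so the intervals are a description. Core peaks outside the 25 strongest numbered 11 of 207, chosen for naming after their values were seen. They include an intron of the receptor kinase gene sev (247, nearest to asRNA:CR44358), the promoter region of fiz (108), an intron of dnc (99.8) and a coding exon of the Runx factor gene lz (85.6), all far below the strongest. Sequence around X peaks with a core had a mean GC content of 51.6%, against 37.2% at X peaks without one and 45.7% at the other X candidates. The mean was thus lower at peaks without a core, as on the autosomes (37.3% without and 50.2% with a core). Single peaks departed from this, such as RpL22 without a core (61.4%) and CG43658 with one (35.6%). The core words are themselves rich in G and C, so part of the gap follows from the grouping.

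CA repeats, searched as CACACACA on both strands, did not mark X peaks. They lay at 1 of 232 X peaks (0.431%) and 20 autosomal ones (1.87%), and the difference spanned 0 (−2.50 to 0.638). Among the other candidates the order was the opposite, at 132 X regions (3.16%) against 2.14%, a difference of 1.01 points (0.491 to 1.61). X sequence itself held the repeat in 3.02% of its 101 bp windows against 1.90% on the autosomes, about the levels found among the other candidates. The GA repeat GAGAGAGA, the kind of sequence found in MSL entry sites, was at 1 X peak and 6 autosomal ones. It was at 0.980% of other X candidates against 0.755%, and in 0.783% of X windows against 0.519%.

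The remaining 6 motifs did not separate X peaks from autosomal ones, and every interval of the difference spanned 0. The E-box CACGTG was at 5 X peaks (2.16 against 2.24%), the DNA replication related element TATCGATA at 3 (1.29 against 1.31%) and the TA repeat TATATATA at 2 (0.862 against 0.374%). Core promoter motif 1 (GGTCACACT), the Su(Hw) core (TGCATACTT) and the Zelda site (CAGGTAG) were at 0 of 232 X peaks, which allows a share of up to 1.29% each. They were at 3, 7 and 6 of the 1070 autosomal peaks. In windows of 101 bp on X the shares of the 6 motifs, from the E-box to the Zelda site in this order, were 1.14, 0.350, 2.16, 0.123, 0.213 and 0.492%. The intervals were not adjusted for the 9 motifs searched.

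**Figure D5:**
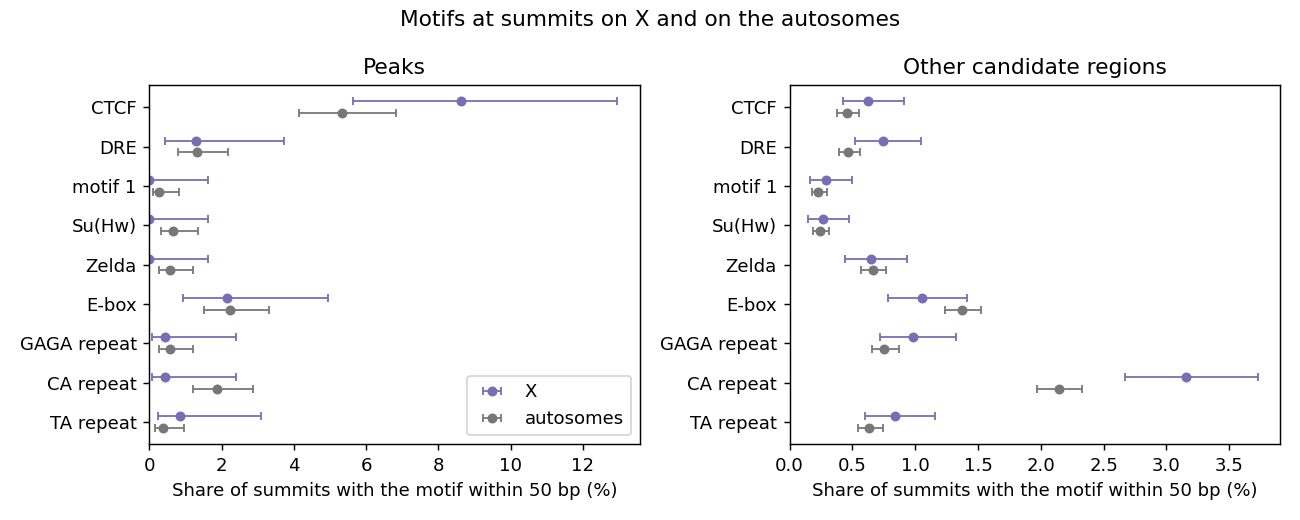
Share of summits with each motif within 50 bp, with 95% Wilson intervals, for peaks and for the other candidate regions on X and on the autosomes. The CTCF core is the most frequent motif at X peaks (8.62%), while the CA repeat is the most frequent among other X candidates (3.16%).

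Of the 3 X genes of dosage compensation 0 had a promoter peak, a count that at the 3.8% of all X genes says nothing about them, so their regions are described only. The gene lncRNA:roX1, one of the RNA subunits of the MSL complex, had a single pooled candidate within 500 bp of the gene, with a signal of 23.3 and rank 20205. The nearest peak summit, at the promoter of CG2930, was 5965 bp away with a signal of 84.0. At lncRNA:roX2, the partner RNA, the higher of the pooled candidates had 34.4 and rank 6859, and the nearest peak was 129407 bp away. In replicate 3 a region at lncRNA:roX2 had rank 2122 and a GA repeat within 50 bp of its summit, and in replicate 4 the highest there had rank 11371. The gene mof, which encodes the acetyltransferase of the complex, had a promoter candidate of 39.5 and rank 4639. No pooled candidate summit lay within 500 bp of the lncRNA:roX2 TSS, and the higher of its candidates overlapped the far end of the gene. All 3 genes thus had only candidates below the peak threshold, and the replicates ranked them differently.

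Among the listed genes of the X signal and of sex determination, Sxl, the switch gene of sex determination, was the only one of 6 with a promoter peak. Its signal was 74.8, close to the threshold, with 54.1 in replicate 3 and 16.1 in replicate 4. The region ranked 830 in replicate 3 but 15565 of 30000 in replicate 4. The replicate 4 value was near the median of 15.7 at the other X candidates of that list, whose X peaks had a median of 49.6. Over all X genes 107 of 2813 (3.8%) had a peak within 500 bp of a TSS, against 4.25% of autosomal genes and 4.18% of all genes, so 1 of 6 is a small count. The other members, sisA, sc, upd1, run and snf, had no candidate at a TSS.

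Cytosolic ribosomal protein genes had the highest share with a promoter peak among the 13 lists counted. Of 15 on X 7 had a promoter peak (46.7%) and all 15 a candidate, against 36.3% of all X genes with a candidate. On the autosomes 28 of 78 genes with such symbols had a peak (35.9%). Over all protein-coding genes the share was 4.23% on X and 5.03% on the autosomes. The highest on X was RpL22 with 172 (112 in replicate 3 and 57.8 in replicate 4), followed by RpS28b with 142 (73.7 and 69.7), RpS10b with 131 (70.9 and 55.6) and RpS5a with 109 (50.02 and 57.0). RpS15Aa, RpL36 and RpL17 had 104, 104 and 71.9. Their summits were 13 to 86 bp from the TSS, so these peaks sat on the start sites. The RpL17 peak also lay within 500 bp of tRNA:Phe-GAA-1-2, the only one of 26 X tRNA genes so counted.

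Signalling genes had promoter peaks at 2 of 14, sgg with 161 (93.7 and 66.6) and Raf with 151 (107 and 52.4). Genes of neuronal excitability and behaviour had them at 2 of 15, dnc as given above and elav, the neuronal RNA-binding protein, with 128 (79.1 and 49.6). Of 9 muscle and adhesion genes only if, which encodes an alpha integrin, had a promoter peak, with 77.6 (41.0 and 33.4). Of 20 genes of the mitochondrial ribosome and respiration only ND-ASHI, a subunit of complex I, had one, and that peak of 93.4 (57.3 and 39.0) was nearer to the TSS of the fumarase gene Fum1.

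The achaete-scute complex (4 genes), segmentation genes (7), female germline and yolk genes (10), classic visible markers (16) and chromatin genes (9) had 0 promoter peaks. At the share of all X genes, counts this small or 0 are near the background. A promoter count leaves out peaks past the promoter window. The strong intron peak of ph-p, which is on the list of chromatin genes, lay 515 bp from the TSS, just past that window. The count of 0 for chromatin genes thus depends on the window chosen. An intron peak of norpA, the phospholipase C of vision, with 226 (117 and 113), lay 1378 bp from the TSS and was left out too.

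Several X peaks shared a gene. Within gene bodies 14 X genes held 3 or more peaks, named here after their values were seen. Autosomal genes were not counted in this way, and the counts were not set against gene length. A long gene has more room for peaks, so the counts do not show that peaks gather in these genes. Raf had 7 over 48405 bp, 5 of them in introns, with signals from 74.8 to 266. CHES-1-like, a forkhead factor, had 6, Hr4, a nuclear receptor of the ecdysone response, 5, Tlk 5 and kirre, an adhesion protein of muscle fusion, 5 over 394149 bp. The noncoding gene lncRNA:CR44357 had 7, of which CG1677, inside it, held 6. Some entries overlap, since the 232 peaks merge into 229 regions, and overlapping entries can take the value of the same replicate region. Neighbouring summits on X were within 2000 bp of each other in 19 of 231 pairs (8.23%), close to the 7.70% on the autosomes.

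Along X the peaks were uneven. Full bins of 1 Mb held 1 to 27 peaks with a median of 10, and 48 to 266 candidates with a median of 204. The third bin from the tip, with Raf, ph-p, PsGEF, sgg and Ugalt, held the most. The first 20 Mb held 222 peaks and 4181 candidates, or 11.1 and 209 per Mb. The remaining 3.54 Mb towards the centromere held 10 peaks and 234 candidates, or 2.82 and 66.1 per Mb, and it also had fewer distinct TSSs, at 105 per Mb against 177. The largest gap between neighbouring peaks, 1243529 bp, lay there, between 21594091 and 22837620 on X. Over bins, the Spearman correlation with the number of TSSs was 0.719 for candidates and 0.331 for peaks over 23 bins, as a description, since bins of a chromosome are not independent.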

How the data were processed

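Anti-GFP ChIP-seq was done on embryos of 1 group in 2 biological replicates. The authors deposited narrowPeak lists on dm6 and dm3 for each replicate and for both pooled, called against a control library, per the text files that came with them. The deposited signal value is a score of unstated scale, used to rank and describe within a list. The deposited −log10 q-value served to break ties only. The deposited summit offset, another whole number, gave each summit. The sources used here do not name the peak caller or aligner. No read numbers are in the lists, so depth is unknown.

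Regions were set against the Release 6 genome and Ensembl release 115 genes with Python 3.11.15, pandas 2.3.3 and scipy 1.17.1. Transposable elements were left out of the start sites. Shares have 95% Wilson intervals, differences Newcombe intervals and density ratios exact intervals. No p-values were computed, because regions are not replicates, and where a count was 0 the limit is 3 counts. The code was tested on simulated regions. Members, gene lists and motifs were chosen with earlier results of these data known, and the higher share of X peaks among candidates and the CTCF motif were among those results. Named by rule were the 25 strongest X peaks, up to 4 genes per list, lncRNA:roX1, lncRNA:roX2 and the regions at the threshold. Other genes, among them RpS15Aa, RpL36, RpL17 and norpA, were named after their values were seen. Of the listed symbols dec-1 and e(y)1 had no match on X.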

Additional observations from a re-analysis of the deposited data

Results flagged for a closer look

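The dm3 lists, which the comparisons above do not use, also name a sequence of X heterochromatin, XHet. It held 5 regions in replicate 3 and 11 in replicate 4, with 3 in the pooled list and 0 among the dm3 optimal peaks. Their highest rank was 15048 in replicate 3 and 4576 in replicate 4. These regions were not tied to genes, since dm3 genes were not used here, and no control counts were in the lists.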

How the results depend on the processing

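Of 68 alternative values 63 stayed within the interval of the reported value and 0 reversed a difference whose interval excluded 0. Leaving out a replicate moved the ratio of peak densities to between 0.866 and 1.04 and the ratio of candidate densities to between 0.723 and 0.874. It moved the difference in coding share of other candidates from 0.0662 points to between −0.361 and 1.42. The share of peaks above the median signal of all peaks was 52.6% on X and 49.4% on the autosomes, a difference of 3.15 points (−3.93 to 10.1). It was −1.29 points (−8.26 to 5.71) in replicate 3 alone. In replicate 4 alone it was 9.05 points (1.56 to 16.3), an interval that excluded 0. Within those upper 122 X and 529 autosomal peaks, the share above their own median, a different quantity, differed by −6.97 points. The cause was not tested. The difference in peak share of candidates stayed between 0.696 and 1.40 points, that in introns between 10.3 and 15.6 and that in intergenic sequence between −9.50 and −5.83. The difference in CTCF core stayed between 2.43 and 4.76 points, and with the first 8 letters of the core alone, an alternative chosen after seeing the data, it was 10.8 against 7.38%. The intron, intergenic and candidate density results were also added after seeing the data. The promoter difference was −8.25 points with an interval that excluded 0 for a window of 250 bp, and −2.79 points for 1000 bp. No paired analysis was possible because the study has a single group. With few X peaks per class, differences of a few points cannot be resolved, and the unknown depth limits what the absence of a region can show.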
